A study of Mus musculus with 10 samples.

Results

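The genes described here are 10, followed across all 10 libraries of a mouse microglia RNA-seq series. They were chosen by name as 6 genes of blood monocytes (Ccr2, Fn1, Ly6c2, Plac8, Chil3 and Vcan) and 4 genes of border macrophages (Mrc1, Pf4, F13a1 and Ms4a7), out of 24453 genes in the deposited table. All mice were C57BL/6 (spelled C57bl6 in the labels) and untreated, and microglia were purified from their brains with magnetic beads (MACS). The aged group was 15 months old (n = 3) and its young controls were 10 weeks old (n = 3). The other 4 libraries came from mice aged 3 months and carried the labels Rab7 deltaMG (n = 2) and Rab7 Control (n = 2). The series design calls the first of these Rab7 null mutants, and the promoter or cell type in which the gene was removed is not given in the sources used here. The libraries labelled deltaMG did not have less Rab7 RNA than those labelled control (72.2 and 79.4 against 64.2 and 67.5 RPM, the reads of a gene scaled to a library total), so the measurement does not check these labels, and both groups are called by their labels throughout. The labels do not say whether replicates were separate animals, so the p-values reflect spread among libraries that may be technical.

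Classical monocytes are made in the bone marrow, carry Ly6C on their surface and leave the marrow and enter tissues through the chemokine receptor CCR2. Border macrophages are the resident macrophages of the meninges, the spaces around blood vessels and the choroid plexus, and carry the mannose receptor MRC1 and other scavenger receptors. Both are relatives of microglia within the myeloid lineage and share surface proteins with them, so a bead purification of brain cells can hold some of each.

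The table held most values as whole multiples of a step that was worth 1 read in each library, which put the totals behind the scaling at 6098270 to 9907450 reads. The 10 microglia markers, such as Csf1r, summed to 3825 to 6611 RPM per library. The 6 monocyte genes summed to 51.3 to 687 RPM and the 4 border macrophage genes to 21.6 to 78.6 RPM. In the young libraries Xist RNA reached 1715 to 1771 RPM, against 0.127 to 0.940 RPM in the aged ones, and Y-linked genes summed to at most 0.288 RPM in the young and 35.7 to 48.7 RPM in the aged libraries. Age and sex therefore cannot be told apart in any comparison of aged with young. The libraries labelled control and deltaMG held both Xist RNA (1410 and 924 against 1171 and 1562 RPM) and Y-linked RNA (19.3 and 25.8 against 20.3 and 9.11 RPM). The balance of the 2 varied among these libraries, and its part in their comparison was not tested. In bulk samples such as these, fewer cells of a type and less RNA per cell cannot be told apart.

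Of the members, Ly6c2 has a near-identical neighbour in the genome, and the start of the 2 coding sequences is shown because the value of Ly6c2 depends on how reads of the pair were assigned. Ly6c2 (chr15:75108158-75111970, minus strand, GRCm38) and Ly6c1 (chr15:75044018-75048830, minus strand) each have 393 coding bases in GENCODE M21, which differ at 9 positions and are 97.7% identical, with a longest identical run of 188 bases. The first 150 coding bases follow, 5′ to 3′, with the 6 differing bases in capitals.
Ly6c1: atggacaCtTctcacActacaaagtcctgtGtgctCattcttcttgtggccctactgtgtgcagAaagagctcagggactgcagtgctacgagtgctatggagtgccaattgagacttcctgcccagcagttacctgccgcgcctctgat
Ly6c2: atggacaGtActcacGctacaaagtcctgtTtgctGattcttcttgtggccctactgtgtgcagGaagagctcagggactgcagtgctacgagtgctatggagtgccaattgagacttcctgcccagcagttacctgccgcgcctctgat
The table listed Ly6c1 at 0.282 to 3.56 RPM, and Ly6c2 was 2.83 to 17.2 times as high as Ly6c1 within a library, so Ly6c2 values are uncertain by reads that match both genes.

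PU.1 is a transcription factor of the myeloid lineage, and its core motif was searched on both strands in the 250 bases before the RefSeq start sites (RefSeq windows on GRCm38.p6, with an entry for 9 of the members). GAGGAAG was present in a window of 4 of these 9 members (Ly6c2, Mrc1, Pf4 and F13a1), some of which have more than 1 window, and in 10.6% of all 32851 windows of that length. Counted as windows, 5 of the 13 windows of these members held it. The windows of Ly6c2 overlap and share a match, so the windows are not independent, and members and windows are not the same count. A window is printed for 1 monocyte gene and for the 2 border macrophage genes that entered the test, each written 5′ to 3′ on the gene's strand with the motif, or its reverse complement CTTCCTC, in capitals. The Ly6c2 window is chr15:75111972-75112221 (minus strand), that of F13a1 is chr13:37050245-37050494 (minus strand), and that of Mrc1 is chr2:14229164-14229391 (plus strand, ending before the GENCODE start).
Ly6c2: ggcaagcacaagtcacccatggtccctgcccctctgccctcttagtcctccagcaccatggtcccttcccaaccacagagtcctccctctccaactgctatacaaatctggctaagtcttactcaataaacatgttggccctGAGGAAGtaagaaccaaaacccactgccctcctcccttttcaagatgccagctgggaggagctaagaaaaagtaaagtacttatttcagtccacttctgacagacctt
F13a1: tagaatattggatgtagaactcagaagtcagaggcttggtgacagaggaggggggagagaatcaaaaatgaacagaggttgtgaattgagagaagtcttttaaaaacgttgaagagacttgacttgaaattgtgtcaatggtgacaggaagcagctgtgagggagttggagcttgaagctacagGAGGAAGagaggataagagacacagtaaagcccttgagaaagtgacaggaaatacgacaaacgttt
Mrc1: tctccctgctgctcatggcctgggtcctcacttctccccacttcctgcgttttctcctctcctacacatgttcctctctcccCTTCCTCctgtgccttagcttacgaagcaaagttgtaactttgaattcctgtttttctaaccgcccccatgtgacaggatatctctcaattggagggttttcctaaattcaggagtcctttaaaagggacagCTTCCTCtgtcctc
A match describes the letters in these windows and is not a site shown to be bound.

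Of the 10 members, 7 (5 of the 6 monocyte and 2 of the 4 border macrophage genes) reached a minimum of 10 RPM in at least 2 libraries and entered the test across 4151 genes (limma on log2(RPM + 1), Benjamini-Hochberg adjustment, threshold 0.05). Plac8, Pf4 and Ms4a7 did not. Vcan reached the minimum through the 3 aged libraries alone, and Ly6c2 through 2 aged libraries and 1 labelled deltaMG. In the aged libraries 4 of the 7 tested members (Ccr2, Fn1, Vcan and F13a1) rose and none fell, where 3.16% of all tested genes rose and 2.99% fell. Between the libraries labelled deltaMG and control 0 of 7 passed, where 1.2% of all tested genes were called higher and 2.58% lower. The count of 0 came from limma, and 3 of the 7 (Ccr2, Fn1 and Ly6c2) and 780 of the 4151 genes had an unadjusted p under 0.05 there. Leaving out aged replicate 3, the library with the most monocyte RNA, left 3 members called in the ageing comparison (Ccr2, Vcan and F13a1) and 3 in the other (Ccr2, Fn1 and Ly6c2), since all libraries share 1 estimate of the spread. Fitted on the 4 libraries labelled deltaMG and control alone, 4 members were called (Ccr2, Fn1, Ly6c2 and Chil3). That fit called 510 of the 4151 genes, against 157 with all libraries, and takes its spread from 2 libraries a group. Under other scalings of the libraries the split of all calls in the aged comparison moved from 131 higher and 124 lower to 217 and 128 (median-of-ratios) and 217 and 113 (equal totals), with the same number of members called.

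**Figure D1:**
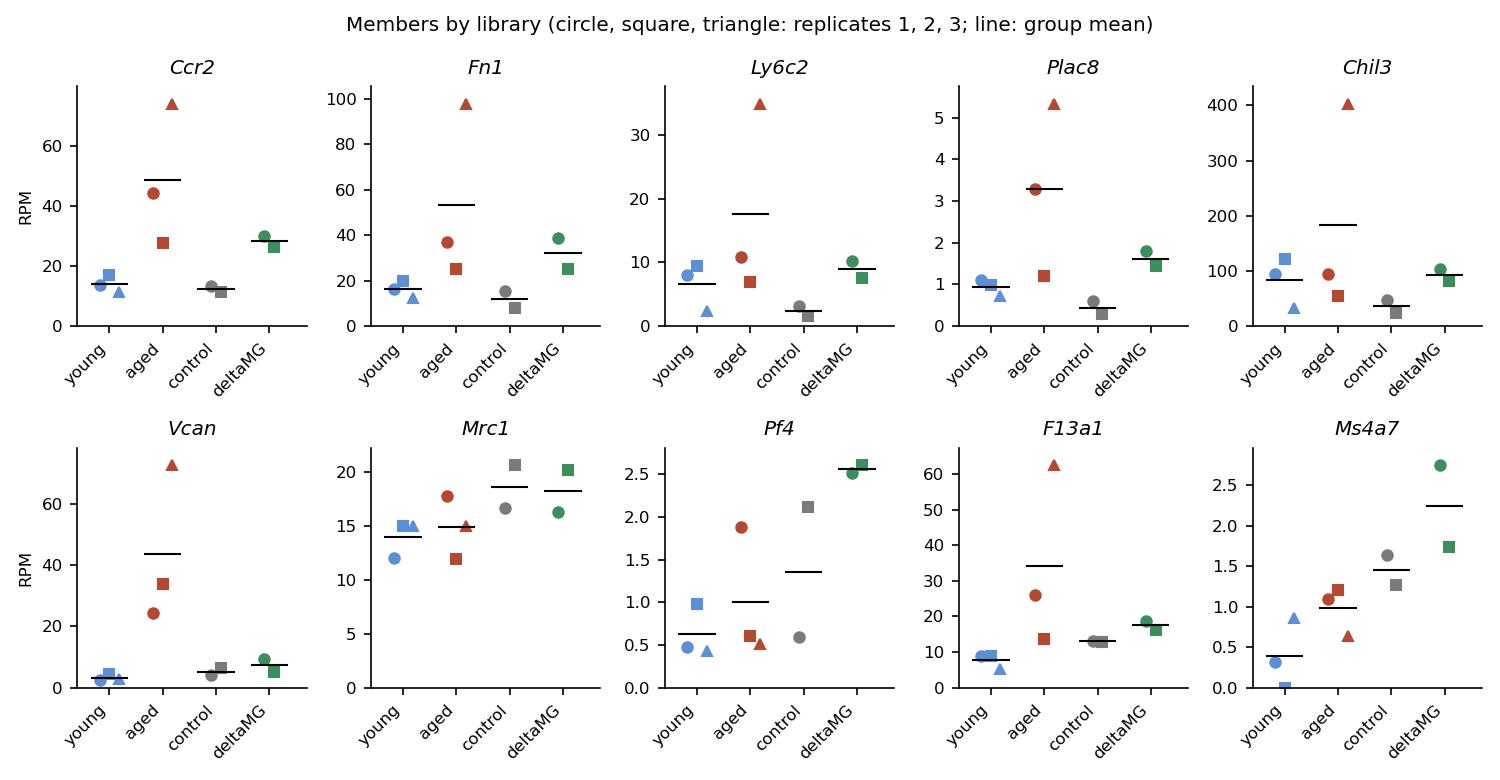
RPM of each of the 10 genes in each of the 10 libraries, with circles, squares and triangles for replicates 1, 2 and 3 and a line at the group mean; each panel has its own linear axis from 0. Aged replicate 3 is the highest library for Ccr2, Fn1, Ly6c2, Plac8, Chil3, Vcan and F13a1, and Mrc1 lies between 11.9 and 20.6 RPM in all libraries.

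The receptor through which monocytes are drawn into tissue was higher in the aged libraries. Ccr2 (ENSMUSG00000049103.14, chr9:124101950-124113557, plus strand) was at 13.6, 16.9 and 11.2 RPM in young replicates 1 to 3 and at 44.2, 27.6 and 73.9 RPM in aged replicates 1 to 3. Every aged library was above every young library, and the means were 13.9 ± 2.85 and 48.5 ± 23.5 RPM (SD, n = 3 each). On the log2(RPM + 1) scale Ccr2 rose by 1.64 (SE 0.26, 3.12-fold, limma adjusted p = 0.00256). The 2 control-labelled libraries held 13.4 and 11.3 RPM of Ccr2, and the 2 deltaMG-labelled ones 30.0 and 26.3 RPM. Both deltaMG libraries were above both controls, with a difference of 1.13 (SE 0.32, 95% interval 0.44 to 1.82) that missed the threshold (limma adjusted p = 0.0677). It passed under 8 of 23 alternatives, among them median-of-ratios scaling, equal totals, quantile normalization and a fit on these 4 libraries alone. Those 8 also hold the looser threshold of 0.10 and leaving out aged replicate 2 or 3, which are not in this comparison. With replicate number as a block it did not pass (limma adjusted p = 0.163). With the neutrophil covariate described below it was 0.24 (limma adjusted p = 0.696). Leaving out each library in turn gave values of 1.02 to 1.24. The ageing and deltaMG differences of Ccr2 were not shown to differ from each other (0.51, 95% interval -0.38 to 1.40, limma adjusted p = 0.583). These values rest on 78 to 582 reads per library.

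Ccr2 ligands are chemokines made by activated myeloid and stromal cells. The 4 on the list (Ccl2, Ccl7, Ccl8 and Ccl12) summed to 8.35 to 9.14 RPM in the young and 15.9 to 17.2 RPM in the aged libraries. Ccl12 was the single one of the 4 to enter the test, and it reached the minimum through aged replicates 1 and 2 alone (13.2 and 11.4 RPM). It was higher in the aged libraries (1.82-fold, limma adjusted p = 0.0288), where 3.16% of all tested genes rose. The ligands summed to 11.0 and 11.1 RPM with the control label and to 13.4 and 13.02 RPM with the deltaMG label, where Ccl12 differed by -0.08 on the log2 scale (limma adjusted p = 0.913).

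Ly6c2, which encodes a Ly6C surface protein of classical monocytes, varied as much within groups as between ages. It was at 8.04, 9.51 and 2.45 RPM in the young libraries and at 10.8, 6.96 and 34.9 RPM in the aged libraries. The groups overlapped, and the difference of 1.12 on the log2 scale (95% interval 0.07 to 2.17) did not pass (limma adjusted p = 0.196). The libraries labelled control held 3.12 and 1.55 RPM, the lowest 2 values of the 4 Rab7 libraries, and those labelled deltaMG held 10.3 and 7.52 RPM. This difference of 1.60 (95% interval 0.31 to 2.88) did not pass either (limma adjusted p = 0.160).

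Chil3 encodes a chitinase-like secreted protein of monocytes, immature neutrophils and activated macrophages, and it was the most abundant member. Its level was 94.7, 122 and 32.0 RPM in the young libraries and 93.7, 54.7 and 403 RPM in the aged libraries. One aged library was far above the rest and the other two lay within the young range, so the difference of 0.82 (95% interval -0.40 to 2.04) became -0.01 without aged replicate 3 (limma adjusted p = 0.453 with it and 0.995 without). With the control label Chil3 was at 47.7 and 23.8 RPM, and with the deltaMG label at 104 and 82.6 RPM. The ranges of these 2 groups did not overlap, but the difference of 1.43 (95% interval -0.07 to 2.93) did not pass (limma adjusted p = 0.290). The related gene Chil4 was at 3.94 RPM in aged replicate 3 and at most 1.31 RPM in the other libraries.

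Plac8, a small cysteine-rich protein of myeloid and lymphoid cells, was near the limit of detection with 2 to 42 reads per library. It was at 1.10, 0.984 and 0.720 RPM in the young, 3.29, 1.21 and 5.33 RPM in the aged, 0.594 and 0.282 RPM in the labelled control and 1.79 and 1.45 RPM in the labelled deltaMG libraries. The groups did not overlap in either comparison. With the minimum lowered to 1 RPM, where 10800 genes were tested and 2.34% were called higher in the aged and 0.657% in the labelled deltaMG libraries, Plac8 differed by 1.02 and 0.87 on the log2 scale and passed in neither comparison (limma adjusted p = 0.0905 and 0.363).

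The matrix proteins fibronectin and versican were both higher in the aged libraries. Fn1 (chr1:71585520-71653200, minus strand), which encodes fibronectin, was at 16.4, 19.7 and 12.5 RPM in the young and at 37.1, 25.2 and 97.8 RPM in the aged libraries. All aged libraries were above all young ones. Fn1 rose by 1.45 on the log2 scale (SE 0.37, 2.73-fold, limma adjusted p = 0.0365), but the call was lost under 10 of 23 alternatives, including leaving out any 1 young library or aged replicate 1 or 3. The control-labelled libraries held 15.5 and 8.04 RPM of Fn1 and the deltaMG-labelled ones 38.7 and 25.3 RPM, a difference of 1.41 (95% interval 0.43 to 2.38) that did not pass (limma adjusted p = 0.106). An overlapping gene on the opposite strand, Apol7d, was listed at no more than 0.127 RPM.

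Vcan, which encodes the large chondroitin sulphate proteoglycan versican, showed the largest change among the 7 tested members (chr13:89655312-89742509, minus strand). It was at 2.52, 4.43 and 2.88 RPM in the young libraries and at 24.4, 34.0 and 72.6 RPM in the aged libraries. The lowest aged value was above the highest young value by a wide margin, and the means were 3.28 ± 1.01 and 43.7 ± 25.5 RPM (SD, n = 3 each), a ratio of 13.3. On the log2(RPM + 1) scale Vcan rose by 3.26 (SE 0.34, 9.60-fold, limma adjusted p = 5.95e-05). The call held in the 23 alternatives that tested Vcan, with values from 2.44 to 3.60. The looser threshold among them refitted nothing and could not have lost the call. At a minimum of 50 RPM Vcan was not tested. Vcan had entered the main test through the 3 aged libraries alone, the group in which it was high. Libraries with the control label had 4.01 and 6.35 RPM of Vcan and those with the deltaMG label 9.44 and 5.21 RPM. Those 2 groups overlapped and differed by 0.41 (95% interval -0.49 to 1.30, limma adjusted p = 0.666). The ageing difference exceeded the labelled deltaMG difference by 2.86 (SE 0.54, limma adjusted p = 0.00596), in a test of the difference that called 4.79% of all genes. That call was lost without control replicate 2 (limma adjusted p = 0.0543) and without deltaMG replicate 2 (0.0542). The oligodendrocyte precursor markers Pdgfra, Cspg4, Olig1, Olig2, Sox10, Tnr and Lhfpl3, of another brain cell type that makes versican, were each under 1 RPM in every library and summed to 0.158 to 1.57 RPM. Fibroblast and pericyte markers summed to 4.57 to 10.2 RPM in the young and 6.98 to 14.6 RPM in the aged libraries, and 6 of the 8, including Col1a1, Dcn and Pdgfrb, were under 1 RPM in every library.

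Vcan also parted from Ccr2 inside the libraries. The ratio of Vcan to Ccr2 RPM was 0.186 to 0.262 in the young libraries and 0.553, 1.23 and 0.983 in the aged libraries. With the control label the ratio was 0.300 and 0.563, and with the deltaMG label 0.315 and 0.198. The ratio of Fn1 to Ccr2, by contrast, stayed between 0.713 and 1.32 in all 10 libraries.

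Of 7 receptors that bind fibronectin, versican or hyaluronan, 6 were tested. Itga4 (2.18-fold) and Cd44 (2.70-fold), adhesion receptors of leukocytes, and Tlr2 (1.77-fold), an innate receptor for which versican is a ligand, rose in the aged libraries, while the integrin subunits Itgav (1.49-fold) and Itgb3 (1.40-fold) fell (limma adjusted p = 0.0364, 0.0251, 0.00416, 0.0123 and 0.0491). Of all tested genes, 3.16% rose and 2.99% fell. The median over the 6 was 0.30 on the log2 scale, against -0.05 over all tested genes. None of the 6 passed in limma between the libraries labelled deltaMG and control (median -0.08, against -0.02). There 3 of the 6 had an unadjusted p under 0.05, as did 780 of the 4151 tested genes.

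**Figure D2:**
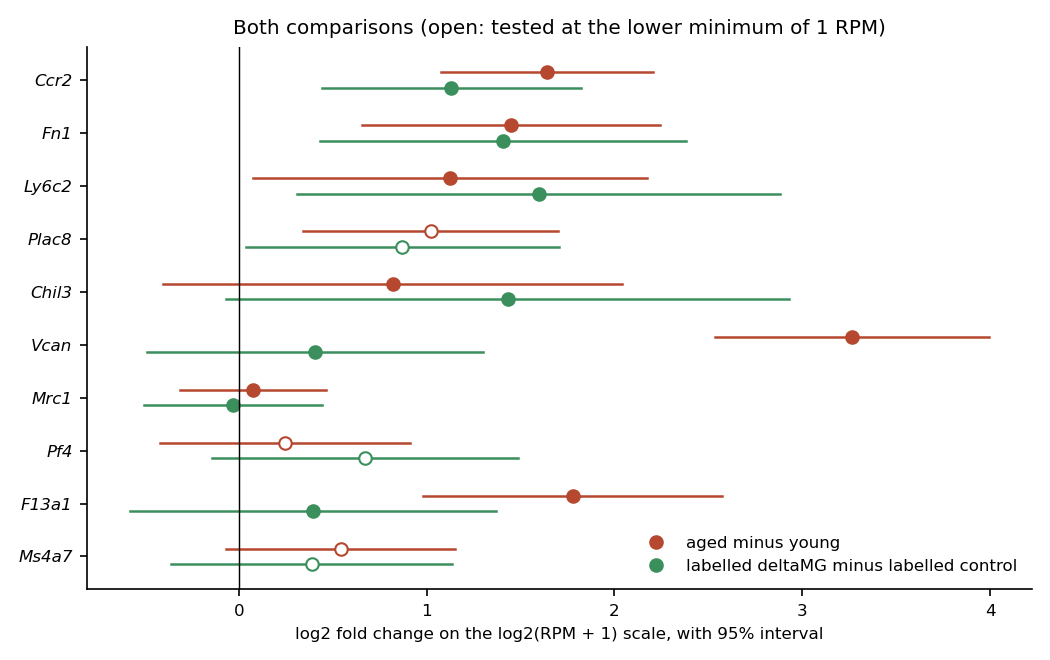
Log2 fold change on the log2(RPM + 1) scale with its 95% interval for aged minus young (red) and labelled deltaMG minus labelled control (green), for all 10 genes; open symbols are genes tested at the lower minimum of 1 RPM. Vcan lies at 3.26 in the ageing comparison and at 0.41 in the other, and Mrc1 lies near 0 in both.

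Of the 4 border macrophage genes 2 were tested: F13a1 rose in the aged libraries, and Mrc1 did not pass in either comparison. The 4 genes summed to 21.7, 24.8 and 21.6 RPM in the young and to 46.8, 27.3 and 78.6 RPM in the aged libraries, and to 32.1 and 36.8 RPM with the control label and 40.3 and 40.6 RPM with the deltaMG label. Neither pair of groups overlapped in this sum. F13a1 (chr13:36867178-37050244, minus strand) encodes the A subunit of coagulation factor XIII, a transglutaminase that monocytes and platelets also hold. It was at 8.98, 8.86 and 5.33 RPM in the young and at 26.2, 13.5 and 62.5 RPM in the aged libraries. All aged libraries were above all young ones, with means of 7.72 ± 2.08 and 34.1 ± 25.4 RPM (SD, n = 3 each). F13a1 rose by 1.78 on the log2 scale (SE 0.37, 3.43-fold, limma adjusted p = 0.0123). The call was lost under 4 of 23 alternatives, among them leaving out young replicate 3 (limma adjusted p = 0.0514), no filter (0.0697) and a fit of the aged and young libraries alone (0.0581). With the control label F13a1 was at 13.2 and 12.8 RPM and with the deltaMG label at 18.8 and 16.2 RPM, groups that did not overlap but differed by 0.39 (95% interval -0.58 to 1.37, limma adjusted p = 0.712).

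Mrc1, the mannose receptor and a defining marker of border macrophages, was at 11.98, 14.9 and 15.0 RPM in the young and at 17.7, 11.9 and 15.0 RPM in the aged libraries. The groups overlapped fully and differed by 0.08 on the log2 scale (95% interval -0.31 to 0.46, limma adjusted p = 0.865). The control-labelled pair held 16.6 and 20.6 RPM of Mrc1 and the deltaMG-labelled pair 16.2 and 20.1 RPM, a difference of -0.03 (95% interval -0.51 to 0.44, limma adjusted p = 0.964). The intervals leave room for changes in either direction of up to those sizes.

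Pf4, a chemokine stored in platelets and also made by border macrophages, had 3 to 21 reads per library. It was at 0.473, 0.984 and 0.432 RPM in the young, 1.88, 0.606 and 0.508 RPM in the aged, 0.594 and 2.12 RPM in the labelled control and 2.51 and 2.60 RPM in the labelled deltaMG libraries. The aged and young ranges overlapped, and both deltaMG libraries were above both controls. At the lower minimum it differed by 0.25 and 0.67 and passed in neither comparison (limma adjusted p = 0.771 and 0.507). Among 9 platelet and megakaryocyte markers 8, including Ppbp and Itga2b, were under 1 RPM in every library, and the 9 summed to 3.28 to 3.89 RPM in the young and 1.41 to 2.85 RPM in the aged libraries. With the control label this sum was 1.19 and 1.55 RPM and with the deltaMG label 3.82 and 5.51 RPM, separated the same way as Pf4. Most of it was Gp9, a platelet glycoprotein, at 0.892 and 1.27 against 3.11 and 5.35 RPM, and its part in the Pf4 values was not tested.

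Ms4a7, a membrane protein of macrophages outside the brain tissue proper, had 0 to 23 reads per library. It was at 0.315 and 0.864 RPM in young replicates 1 and 3 and had 0 reads in young replicate 2, which allows a level of up to 0.492 RPM (3 reads, counting error alone). The aged libraries held 1.10, 1.21 and 0.635 RPM, the control-labelled libraries 1.63 and 1.27 RPM and the deltaMG-labelled ones 2.75 and 1.74 RPM. The young and aged ranges overlapped and the 2 Rab7 groups did not. At the lower minimum it differed by 0.54 and 0.39 (limma adjusted p = 0.371 and 0.730).

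In all, the aged and young ranges did not overlap for 5 of the 10 members, 4 of them among the 7 tested, where 8.41% of all tested genes had every aged library above every young one. The ranges of the libraries labelled deltaMG and control did not overlap for 8 of the 10, 5 of them among the 7 tested, where 25.2% of all tested genes had both deltaMG libraries above both controls. With 2 libraries a group, separation of ranges is common in this table.

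Levels compared per length of exon put Chil3 far above the rest. In the young libraries Chil3 was at 50.8 RPM per kilobase, Ly6c2 at 2.43, Mrc1 at 2.19, Ccr2 at 2.05, Fn1 at 1.39, F13a1 at 1.15, Pf4 at 0.873, Plac8 at 0.588, Vcan at 0.227 and Ms4a7 at 0.0883 RPM per kilobase, all as means of 3. The middle of this order is not resolved: Ly6c2 had an SD of 1.36, Mrc1 of 0.269 and Ccr2 of 0.421 RPM per kilobase. In the aged libraries Ccr2 (7.18), Ly6c2 (6.41), F13a1 (5.05), Fn1 (4.57) and Vcan (3.02 RPM per kilobase) all had means above that of Mrc1 (2.33), with SDs of 1.76 to 5.53 for these 5.

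**Figure D3:**
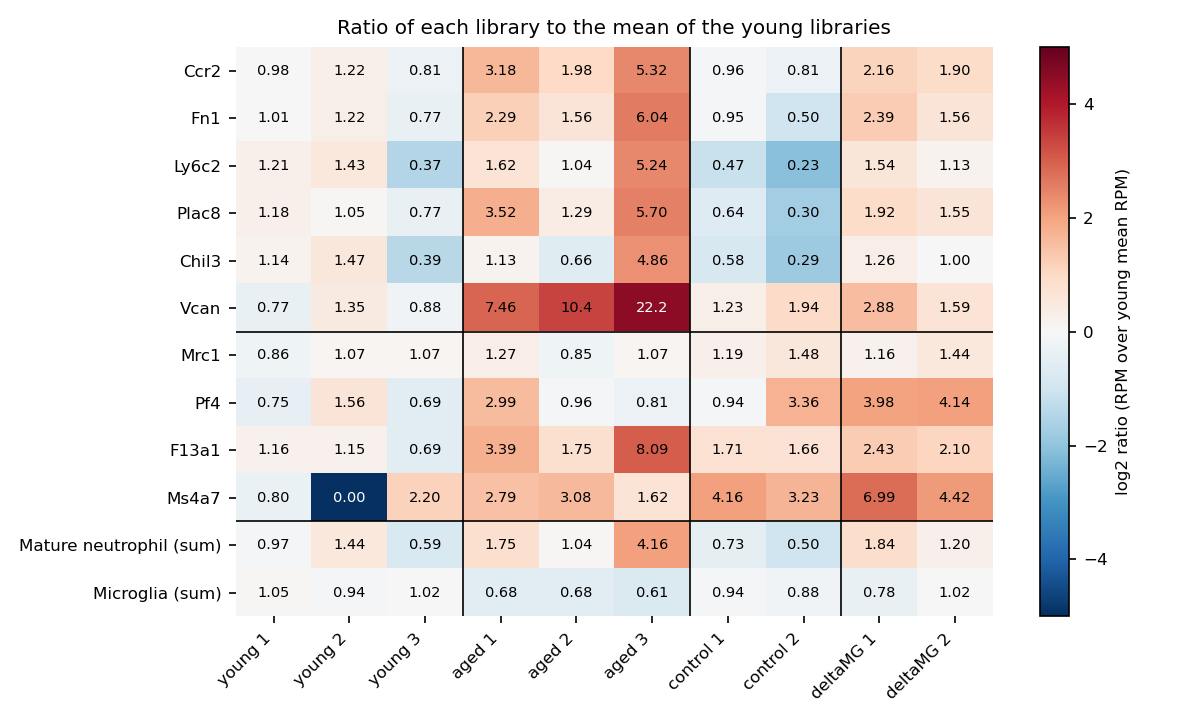
Ratio of each library's RPM to the mean of the young libraries, printed in each cell and coloured on a log2 scale, for the 10 genes and for the summed mature neutrophil and microglia markers; the 0.00 cell of Ms4a7 had 0 reads. Vcan is 7.46 to 22.2 times the young mean in the aged libraries, and the microglia sum is 0.607 to 0.681 times.

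The monocyte genes varied together across libraries, and F13a1 varied with them. Over the 10 libraries the Pearson correlation of log2(RPM + 1) with Ccr2 was 0.960 for Fn1, 0.955 for Plac8, 0.903 for F13a1, 0.877 for Vcan, 0.876 for Ly6c2 and 0.794 for Chil3, and it was 0.147 for Pf4, 0.125 for Ms4a7 and -0.01 for Mrc1. These are descriptions over points that share a library, its depth and its purification. F13a1 had a correlation of 0.190 with Mrc1, and the ratio of F13a1 to Mrc1 was 0.356 to 0.750 in the young and 1.14 to 4.17 in the aged libraries. The tested genes most like the mean of the monocyte genes, of 4144 compared, were Cd44 (0.990), Iqgap1 (0.988), Cybb (0.978), Sgms2 (0.975) and Ahnak (0.974). Those most like the mean of the border macrophage genes were H2-Ab1 (0.961), H2-Aa (0.942), Fxr1 (0.929), Fam32a (0.918) and H2-Eb1 (0.904).

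Other genes of the same cell types were read from lists. Among 16 other genes of classical monocytes, 9 were tested and 4 rose in the aged libraries, where 3.16% of all tested genes rose. The 4 were Itga4, Cd44, Smpdl3a (2.07-fold), an acid phosphodiesterase, and Clec4e (2.68-fold), the C-type lectin Mincle. Smpdl3a reached the minimum through aged replicates 1 and 3 alone (10.3 and 16.5 RPM). Itga4 and Cd44 are also among the receptors counted above. The median of the 9 was 1.25 on the log2 scale, against -0.05 over all tested genes. Between the libraries labelled deltaMG and control none of the 9 passed in limma, with a median of 1.09 against -0.02. An unadjusted p under 0.05 was found there for 6 of the 9 and for 780 of the 4151 tested genes. Among 10 genes of non-classical monocytes 5 were tested and Nr4a1, the transcription factor that these cells require, rose in the aged (1.66-fold, limma adjusted p = 0.0251) and in the labelled deltaMG libraries (1.85-fold, limma adjusted p = 0.0337). Of all tested genes, 3.16% and 1.2% were called higher in these comparisons. An unadjusted p under 0.05 was found for 4 and 3 of the 5, and for 894 and 780 of the 4151 tested genes. Nr4a1 is also an immediate early gene of many cells.

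Most other border macrophage genes were too low to test. Of 17, 3 were tested, and Tgfbi, a secreted matrix protein that monocytes also make, rose in the aged libraries (2.18-fold, limma adjusted p = 0.0123). Of all tested genes, 3.16% rose there. None of the 3 passed in limma between the libraries labelled deltaMG and control. There 2 of the 3 had an unadjusted p under 0.05, as did 780 of the 4151 tested genes. Stab1, a scavenger receptor, differed by -0.37 in the ageing comparison and by 0.65 in the other and passed in neither alone. Its 2 differences differed from each other (-1.02, limma adjusted p = 0.0211), in a test that called 4.79% of all tested genes. Of the 17, 4 (Cd209f, Cd209g, Folr2 and Clec10a) were under 1 RPM in every library. Cd163, a haemoglobin scavenger receptor, was at 1.62 to 7.05 RPM over the 10 libraries, and Lyve1, Siglec1 and Mgl2 reached at most 2.82, 3.15 and 2.75 RPM. The 17 summed to 64.5 to 102 RPM per library.

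Neutrophil RNA varied with the monocyte genes. The 11 mature neutrophil markers summed to 755, 1129 and 463 RPM in young replicates 1 to 3, to 1367, 816 and 3259 RPM in aged replicates 1 to 3, to 573 and 388 RPM with the control label and to 1438 and 937 RPM with the deltaMG label. Aged replicate 3 had the most, as it did of the monocyte genes. Of the 11, 8 were tested, and Cxcr2, the receptor that guides neutrophils, rose in the aged (3.04-fold) and labelled deltaMG libraries (4.62-fold, limma adjusted p = 0.0206 and 0.0117). It was the 1 of the 8 called in each comparison, where 3.16% and 1.2% of all tested genes were called higher. An unadjusted p under 0.05 was found for 6 of the 8 in the ageing comparison and for 7 in the other. Over all tested genes the numbers were 894 and 780 of 4151. Medians over the 8 were 1.10 and 1.62 on the log2 scale, and Cxcr1 was under 1 RPM in every library. Csf3r varied less, at 98.2 to 177 RPM in all libraries, with differences of 0.25 and 0.14 (limma adjusted p = 0.358 and 0.740). It is part of the sum and of the neutrophil score used below. The 8 immature neutrophil markers summed to 1361 RPM in aged replicate 3 and to 84.9 to 429 RPM in the other libraries. None of the 5 tested passed in limma in either comparison. In the ageing comparison 1 of the 5 had an unadjusted p under 0.05, as did 894 of the 4151 tested genes. In the other comparison the numbers were 3 of the 5 and 780 of the 4151. The correlation with the mean of all 11 mature neutrophil genes over the 10 libraries was 0.982 for Ly6c2, 0.976 for Fn1, 0.951 for Chil3, 0.937 for Plac8, 0.922 for Ccr2, 0.797 for F13a1 and 0.707 for Vcan.

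**Figure D4:**
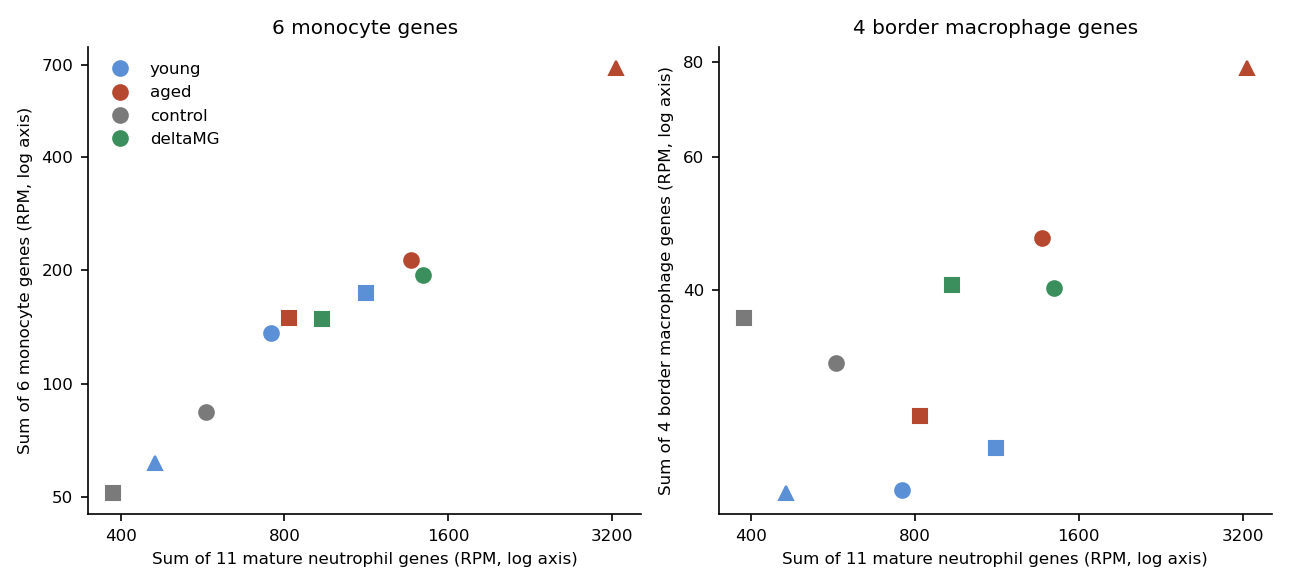
Summed RPM of the 6 monocyte genes (left) and of the 4 border macrophage genes (right) against the summed RPM of 11 mature neutrophil genes in each library, on log axes, with colours for groups and circles, squares and triangles for replicates 1, 2 and 3. The monocyte sum runs from 51.3 to 687 RPM along with the neutrophil sum, and aged replicate 3 stands at the top of both panels. Chil3, which immature neutrophils also make, is the largest part of the monocyte sum. It gave 403 of 687 RPM in aged replicate 3 and 54.7 of 150 RPM in aged replicate 2.

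The mean log2 value of the 8 tested mature neutrophil genes was then added as a covariate. In this fit the ageing difference was 2.72 for Vcan (limma adjusted p = 6.60e-07), 1.03 for Ccr2 (0.00162) and 0.91 for F13a1 (0.0360), all still past the threshold. It was 0.53 for Fn1 (limma adjusted p = 0.190), which was lost, -0.10 for Ly6c2 (0.912) and -0.72 for Chil3 (0.0290), which was lower at a given neutrophil level. For labelled deltaMG against labelled control no member passed, and Ccr2 and Fn1 were at 0.24 and 0.07 (limma adjusted p = 0.696 and 0.929). In this fit the ageing difference exceeded the deltaMG difference for Ccr2 by 0.79 and for F13a1 by 1.78, as well as for Vcan (limma adjusted p = 0.0401 for Ccr2 and 0.000239 for F13a1). The neutrophil score was measured in the same libraries, and its part in the results was not tested beyond this fit.

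**Figure D5:**
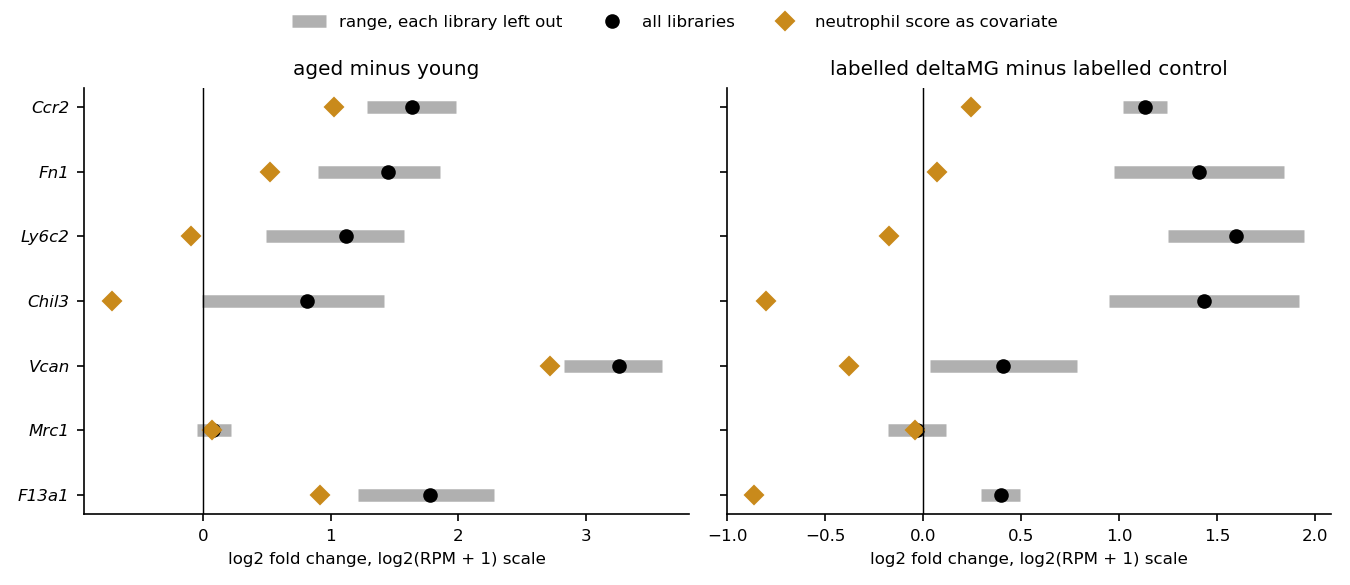
Log2 fold change of the 7 tested members in each comparison with all libraries (black), its range when each library was left out in turn (grey), and with the neutrophil score as a covariate (orange). Vcan stays between 2.83 and 3.60 in the ageing comparison when a library is left out, and the orange points of Ly6c2 and Chil3 lie below 0 in both.

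The 10 microglia markers summed to 5896 to 6611 RPM in the young and 3825 to 4293 RPM in the aged libraries. Of the 10, 6 fell, where 2.99% of all tested genes fell. With the control label they summed to 5568 and 5937 RPM, and with the deltaMG label to 4929 and 6401 RPM. Of the 10, Cx3cr1, the fractalkine receptor of microglia, passed in that comparison: it was at 398 and 437 RPM with the control label and 965 and 1285 RPM with the deltaMG label (2.67-fold, limma adjusted p = 0.000158), against 1068 to 1174 RPM in the young and 689 to 741 RPM in the aged libraries. Of all tested genes, 1.2% were called higher with the deltaMG label. The 2 differences of Cx3cr1 also differed from each other (-2.05 on the log2 scale, limma adjusted p = 2.33e-05), in a test that called 4.79% of all tested genes. Erythrocyte genes (4 globin genes and Alas2) were low, too low to be tested, and their sums separated the groups in both comparisons. They summed to 3.34, 2.71 and 0.655 RPM in the young and to 12.5, 3.58 and 6.88 RPM in the aged libraries, and to 0.0743 and 0.212 RPM with the control label and 9.24 and 1.74 RPM with the deltaMG label, with no overlap in either comparison. B cell markers summed to 0.297 to 0.423 RPM with the control label and 0.868 to 2.27 RPM with the deltaMG label, most of it Cd79b. Fibroblast and pericyte markers summed to 0.282 to 1.04 and 3.82 to 9.26 RPM. With the deltaMG label most of that was Igf2, at 2.99 and 8.68 RPM, against 0.743 and 0.141 RPM with the control label. Over all libraries T and NK cell markers summed to at most 6.86 RPM, B cell markers to at most 3.05 RPM and endothelial markers to at most 7.75 RPM. The sum of astrocyte markers was lower in the aged (23.4 to 32.7 RPM) than in the young libraries (34.7 to 45.9 RPM). It was also lower with the deltaMG label (32.9 and 38.8 RPM) than with the control label (53.3 and 47.9 RPM). Most of it was Slc1a3, which passed in neither comparison (limma adjusted p = 0.122 and 0.158). Gfap, Aldh1l1 and Gja1 were under 1 RPM in every library. Neuron markers summed to 2.29 to 5.55 RPM in the aged and at most 1.30 RPM in the young libraries. These sums were not tested. The part of these cell types in the differences was not tested.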

How the data were processed

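RNA from bead-purified mouse microglia was amplified (NuGEN Ovation RNA-Seq System V2) and made into Ion Xpress Plus Fragment libraries, per the labels' protocols. FastQC and the builds GRCm38 and mm10 are named in the submitters' processing notes. For the aligner, counter, strand setting and normalization the answer is the same: not given in the sources used here. The unit of the deposited table was taken to be RPM, because most low values were whole multiples of 1 step per library above a constant of 0.0001. Of values up to 500 reads, 94.2% to 94.6% were within 0.05 of a whole read, so no count model was used; every member's value was whole. The listed genes held 1284408 to 1855045 reads per library.

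Genes that reached 10 RPM in 2 or more of the 10 libraries were fitted on log2(RPM + 1) by limma 3.58.1 (R 4.3.3), the 4 groups sharing 1 spread (6 residual degrees of freedom, mean-dependent prior). Benjamini-Hochberg adjustment ran over 4151 genes, with a threshold of 0.05. Fold changes understate those of low genes. The fit was tested on simulated data. All members were named, with called genes of marker lists (at most 4 a list), the 5 genes most like each set, and near-identical or overlapping genes; other genes given as examples of markers were chosen after their values were seen. Members and lists were chosen with earlier results of these data known. Gene positions and exon lengths are from GENCODE M21 and start sites from RefSeq. Alternatives changed the filter, scaling, pseudocount, prior variance, threshold, library weights or fitted samples. Others added a replicate block or a neutrophil covariate, or left out each library in turn. Counts out of 23 leave out the minimum of 50 RPM, where Chil3 alone of the members was tested. They hold the looser threshold, which refits nothing and cannot lose a call.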

Additional observations from a re-analysis of the deposited data

Results flagged for a closer look

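Vcan differed between the 2 comparisons: its ageing difference exceeded its difference between the libraries labelled deltaMG and control by 2.86 on the log2(RPM + 1) scale (limma adjusted p = 0.00596). It was higher in 3 of 3 aged libraries than in any young library (24.4 to 72.6 against 2.52 to 4.43 RPM), and the libraries labelled deltaMG (5.21 and 9.44 RPM) overlapped those labelled control (4.01 and 6.35 RPM). Without control replicate 2 the adjusted p was 0.0543. Aged and young libraries also differ in sex, which cannot be told apart from age.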

How the results depend on the processing

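Members passing the threshold numbered 4 for aged minus young, 0 for labelled deltaMG minus control and 1 for the difference of the 2. For aged minus young the number became 2 without a filter, 2 when only those libraries were fitted and 0 at a minimum of 50 RPM, where 1 member was tested; leaving out each library gave 2 to 5. For labelled deltaMG minus control it became 1 under median-of-ratios scaling, equal totals, quantile normalization or a threshold of 0.10, 3 with array weights and 4 when only those libraries were fitted; leaving out each library gave 0 to 3 (2 without aged replicate 2 and 3 without aged replicate 3, which were not in that comparison but share the spread). For the difference it became 0 at a minimum of 50 RPM and 3 with the neutrophil covariate; leaving out each library gave 0 to 2, with 0 without control replicate 2 or deltaMG replicate 2. Over all genes, 255 passed for aged minus young, 157 for labelled deltaMG minus control and 199 for the difference. Leaving out each library gave 92 (without young replicate 1) to 419 (without aged replicate 2) and 22 (without control replicate 1) to 307 (without aged replicate 3), while own libraries alone gave 121 and 510. In the 3 contrasts no filter gave 131, 88 and 115 genes, a minimum of 50 RPM 116, 62 and 86, array weights 361, 357 and 344, the neutrophil covariate 112, 152 and 456, and a threshold of 0.10 gave 445, 287 and 348.

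With the neutrophil covariate these values changed sign: Ly6c2 to -0.10 and Chil3 to -0.72 (aged minus young), Ly6c2 to -0.18, Chil3 to -0.80, Vcan to -0.38 and F13a1 to -0.86 (labelled deltaMG minus control), and Ly6c2 to 0.082 and Chil3 to 0.086 (difference). The Fn1 difference was 0.04 and became -0.21 with array weights, and -0.51 to 0.47 when each library was left out. Left-out libraries gave Mrc1 -0.052 to 0.22, -0.18 to 0.11 and -0.038 to 0.25 in the 3 contrasts, and Chil3 -0.0067 to 1.42 for aged minus young. The cause was not tested.

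Deviations of same-numbered libraries from their group means had correlations of -0.14, -0.24 and -0.39 for aged and young, and 0.12 for the 2 Rab7 groups. Deviations within a group add up to 0, and with 2 libraries they mirror each other. These correlations therefore cannot show whether libraries were paired. With the replicate block 2 members (Ccr2 and Vcan) and 66 genes passed for aged minus young, 0 members and 69 genes for labelled deltaMG minus control and 1 member and 102 genes for the difference. Depth limits Plac8, Pf4 and Ms4a7, with 0 to 42 reads per library, and groups of 2 and 3 libraries limit all tests.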
